A study of Mus musculus with 27 samples.

Results

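The 8 genes described here are Cd274, Lgals9, Lgals1, Lgals3, Cd47, Pvr, Nectin2 and Nt5e, whose proteins act at the tumour cell surface or are lectins released from the cell. They were taken by symbol from the deposited table, so they are 8 of its 55401 genes. Their levels were followed in 27 polyA RNA-seq libraries of 4T1 cells, a mouse mammary carcinoma line that metastasizes readily, in 9 groups of 3 libraries. The knockout arm held parental 4T1 cells without a knockout and 6 CRISPR-Cas9 knockout clones: gs1B8 and gs2_B4 for Drp1 (gene Dnm1l), gs1_B11 and gs2_F6 for Fis1, and gs1_B4 and gs1_C8 for Mff. Drp1 is the GTPase that divides mitochondria, and Fis1 and Mff are outer-membrane proteins of the same fission machinery. The drug arm held 4T1 cells kept for 3 days in leflunomide, an inhibitor of the pyrimidine synthesis enzyme DHODH, or in its vehicle DMSO, and no dose was given in the sources used here. Each genotype is thus represented by 2 clones, the clones are named by the codes in the deposited table, and nothing says that the 3 libraries of a group came from separate cultures. The p-values therefore measure only the spread between these libraries, which may be technical.

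Tumour cells carry or release a set of molecules that dampen an immune attack. PD-L1, the product of Cd274, engages PD-1 on T cells, and its transcription is switched on by interferons, among other factors through IRF1. Galectin-9 (Lgals9) binds TIM-3, CD47 gives phagocytes a signal not to engulf the cell through SIRPα, PVR and nectin-2 are shared ligands of the activating receptor DNAM-1 and the inhibitory receptor TIGIT, and CD73 (Nt5e) makes immunosuppressive adenosine from AMP. The values below are RNA levels in cultured tumour cells and not surface protein.

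Cd274 and Lgals9 rose together in the Mff clone gs1_C8, so the sequences before their RefSeq transcription start sites are shown to let a reader compare them. RefSeq (GRCm38.p6) has an upstream sequence for 6 of the 8 genes, with no entry for Lgals1 and Pvr. The window of 250 bases before the start is at chr19:29367188-29367437 (plus strand) for Cd274 and at chr11:78984925-78985174 (minus strand) for Lgals9. Capitals mark matches, on either strand, to the core of the interferon-stimulated response element (2 copies of GAAA with any 2 bases between them) and to the GC box (GGGCGG).
Cd274: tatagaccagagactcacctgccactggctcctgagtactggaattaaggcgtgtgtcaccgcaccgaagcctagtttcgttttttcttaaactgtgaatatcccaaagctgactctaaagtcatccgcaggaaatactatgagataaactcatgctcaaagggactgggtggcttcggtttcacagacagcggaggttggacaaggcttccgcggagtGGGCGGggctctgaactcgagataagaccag
Lgals9: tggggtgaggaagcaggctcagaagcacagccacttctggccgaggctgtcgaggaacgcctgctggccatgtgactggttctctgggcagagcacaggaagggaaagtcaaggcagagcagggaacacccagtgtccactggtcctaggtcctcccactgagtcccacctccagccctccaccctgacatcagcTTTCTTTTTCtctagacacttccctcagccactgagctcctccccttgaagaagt
The interferon element core lay in the Lgals9 window, on the opposite strand, 55 to 46 bases before the start, and in none of the other 5 windows. It was found in 2.98% of 32851 RefSeq windows of the same length. A GC box lay in the window of Cd274, 31 to 26 bases before the start, and in those of Lgals3, Cd47, Nectin2 and Nt5e, against 32.7% of all windows. In Nt5e the GC boxes overlapped each other in pairs. The RefSeq start of Lgals3, Cd47, Nectin2 and Nt5e lies inside the GENCODE gene span given below, by 6109, 55121, 910 and 412 bases, so these windows lie within the annotated gene, and a second Cd47 entry starts 55128 bases inside. Only exact matches were searched for, so a window without one may hold a near match. Near matches were not counted in any window. These motifs were chosen after the levels had been seen, and a match is a description of letters only.

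The libraries held 20715428 to 31295937 counts in the knockout arm and 18492020 to 24658747 in the drug arm. DMSO replicate 3 stood apart, with 23.2% of its counts in 1 ribosomal RNA gene against 1.60% to 5.72% in the other 26 libraries. The targeted transcripts fell in their own clones: Dnm1l was at 31.2% and 18.7% of parental in gs1B8 and gs2_B4, Fis1 at 44.3% and 36.1% in gs1_B11 and gs2_F6, and Mff at 54.4% and 49.6% in gs1_B4 and gs1_C8. Epithelial markers summed to 1786 to 3645 CPM (counts scaled to a common library total with TMM factors), with Krt5 at or near 0. Leukocyte markers summed to 4.16 to 16.5 CPM, with Cd3e, Cd4, Cd8a, Adgre1 and Ncr1 at 0 in every library and Ptprc at no more than 0.202 CPM. In such bulk RNA, fewer cells with a transcript and less transcript per cell cannot be told apart.

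Per length of exon, the 8 genes covered a wide range in parental cells. Lgals1 was the most abundant at 3466 CPM per kb and Lgals3 came next at 170.6 CPM per kb. Cd47, Pvr, Nt5e, Nectin2 and Lgals9 followed at 14.2, 10.8, 8.09, 5.29 and 3.80 CPM per kb. Cd274 was the lowest at 0.403 CPM per kb and rested on 22 to 154 counts per library over the series, so its values carry the most counting error.

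**Figure D1:**
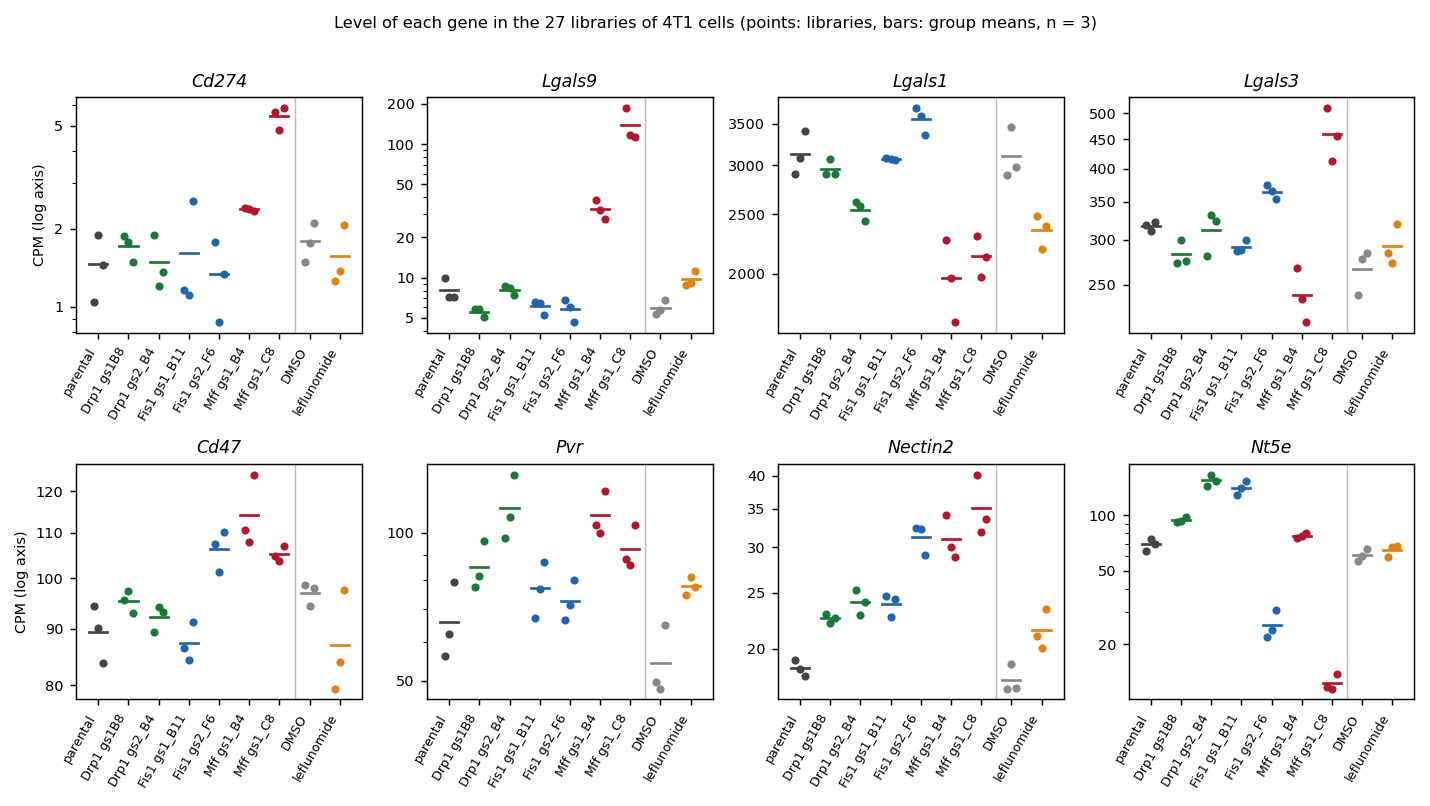
CPM of each of the 8 genes (log axes, each panel with its own range) in every library, by group: points are libraries, bars are means of 3 libraries, and the grey line separates the knockout arm from the drug arm. By group mean, Lgals9 and Cd274 are highest in the Mff clones, with gs1_C8 above gs1_B4, while Nt5e is lowest in gs1_C8 and gs2_F6 and highest in gs2_B4 and gs1_B11.

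The number of the 8 genes that changed against parental cells differed from clone to clone. A gene was called where edgeR's quasi-likelihood test gave a Benjamini-Hochberg adjusted p below 0.05 over all tested genes, and all 8 passed the filter on low counts. In gs1B8, 3 of 8 were higher and 0 lower, where 29.5% of all 13940 tested genes were called, 12.1% higher and 17.4% lower. In gs2_B4, 3 were higher and 1 lower, against 50.3% of all genes called, 24.1% higher and 26.3% lower. In gs1_B11, 2 were higher and 0 lower, against 47.3%, 21.4% and 25.9%. In gs2_F6, 2 were higher and 1 lower, against 31.3%, 13.1% and 18.2%, and in gs1_B4, 4 were higher and 2 lower, against 47.7%, 20.9% and 26.8%. All 8 genes were called in gs1_C8, 6 higher and 2 lower, where 46.7% of all genes were called, 21.5% higher and 25.2% lower. With leflunomide 1 of 8 genes, Lgals9, was higher and 0 were lower, where 2.79% of 12603 tested genes were called, 1.84% higher and 0.944% lower. The median log2 fold change over the 8 genes was 0.50 in gs1_C8 and 0.49 in gs1_B4, beside -0.02 over all genes in each, and it lay between 0.02 and 0.15 in the other 4 clones and at 0.12 with leflunomide. In gs1B8, gs2_B4 and gs2_F6 the share of the 8 that was called was near that of all genes, and in gs1_B11 it was below it.

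**Figure D2:**
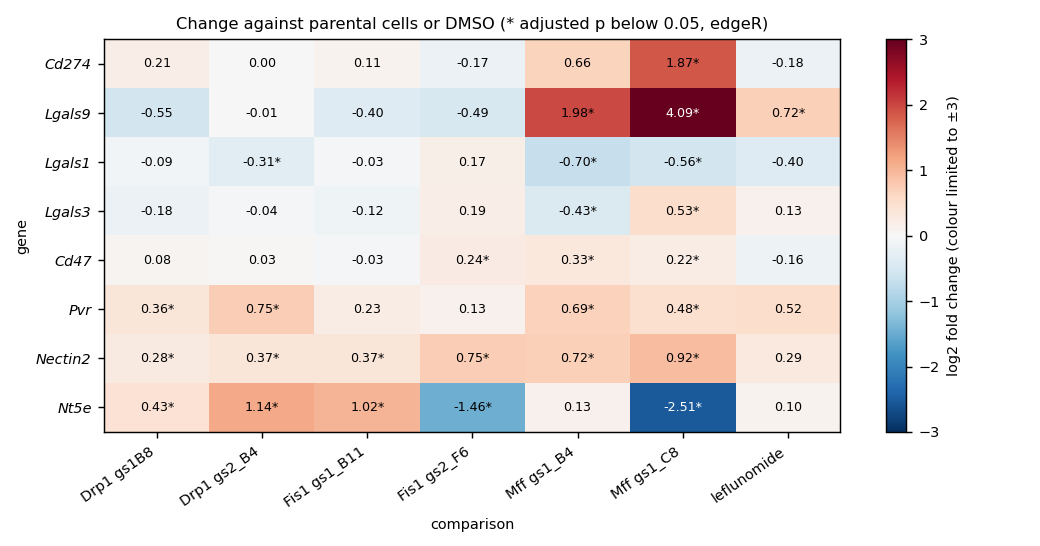
Log2 fold change of each of the 8 genes (rows) in each knockout clone against parental cells and in leflunomide against DMSO (columns), with the colour limited to ±3 and an asterisk for an adjusted p below 0.05 in edgeR. Nectin2 is the 1 row called higher in all 6 clones, Pvr lies above 0 in all 6 and is called in 4, and Nt5e changes sign between clones.

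Cd274 (ENSMUSG00000016496.7, chr19:29367455-29388095, GRCm38, plus strand) encodes PD-L1, the ligand of PD-1. Its level was 1.04, 1.89 and 1.45 CPM in the parental libraries and 5.64, 4.81 and 5.85 CPM in gs1_C8. Every gs1_C8 library lay above every other library of the series. The rise in gs1_C8 was 3.65-fold (log2 fold change 1.87, SE 0.278, edgeR adjusted p = 1.5e-05). In gs1_B4, the other Mff clone, the 3 libraries were at 2.41, 2.39 and 2.34 CPM, above all 3 parental values, but the difference did not pass the test (log2 fold change 0.66, SE 0.290, edgeR adjusted p = 0.066). It passed in 4 of 15 alternatives, 1 of them without parental replicate 2, where it was 0.93 on the log2 scale. The Drp1 and Fis1 clones had means of 1.33 to 1.71 CPM and none was called.

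In the order of the 9 group means, Cd274 ran from 1.33 ± 0.454 CPM (SD, n = 3) in gs2_F6 to 5.43 ± 0.551 CPM in gs1_C8. The 7 lowest groups overlapped their neighbours, and gs1_B4 and gs1_C8 each stood clear of the group next below in this order. However, gs1_B4 was not clear of all lower groups. One gs1_B11 library, replicate 3, was at 2.56 CPM, above every gs1_B4 library, while the other 2 were at 1.17 and 1.11 CPM.

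The 21 genes listed here as PD-L1 regulators, all of them tested, moved in both directions in the Mff clones. The list is broad: for Plgrkt, Ermp1 and Nlrc5 an action on Cd274 or PD-L1 is not claimed. In gs1_C8, 6 of the 21 were higher and 5 lower, where 46.7% of all genes were called. Their median log2 fold change was 0.05 beside -0.02 over all genes. Irf9 and Stat2, transcription factors of the type I interferon response, were higher by 2.61 (SE 0.103) and 1.97 (SE 0.0988) on the log2 scale in gs1_C8. In gs1_B4 the list had 8 genes higher and 3 lower, against 47.7% of all genes called. Irf9 was higher there by 0.46 (SE 0.109), whereas Stat2 at 0.19 did not pass the test. Nlrc5, the transactivator of MHC class I, was low in abundance and was higher in gs1_B4 by 1.63 (SE 0.352) and lower in gs2_F6 (-3.99 on the log2 scale). The receptor subunits Ifnar1 and Ifnar2 were lower in gs1_C8 (-0.26 and -0.37) and higher in gs1_B4 (0.18 and 0.47).

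In the Drp1 clones the same list had 6 genes higher and 3 lower in gs1B8 and 6 higher and 6 lower in gs2_B4. Of all genes, 29.5% and 50.3% were called in these 2 clones. Irf1, the interferon regulatory factor that acts on Cd274, was higher by 0.41 and 0.56 on the log2 scale there. It was also higher in gs1_B11 (0.31), gs2_F6 (0.34) and gs1_C8 (0.73) but not in gs1_B4 (-0.21). Of all tested genes, 3.03% were called higher in at least 5 of 6 clones. The Fis1 clones had 4 higher and 8 lower in gs1_B11 and 5 higher and 8 lower in gs2_F6. Of all genes, 47.3% and 31.3% were called there. Cmtm6, which protects PD-L1 from degradation, was lower in both Fis1 clones (-0.18 and -0.35) and higher in both Mff clones (0.24 and 0.14). Its relative Cmtm4 was lower in all 6 clones (-0.15 to -0.94), as were 2.1% of all tested genes. With leflunomide 0 of 21 were called by edgeR, and 6 had an unadjusted p below 0.05, beside 2.79% and 20.9% of all genes.

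**Figure D3:**
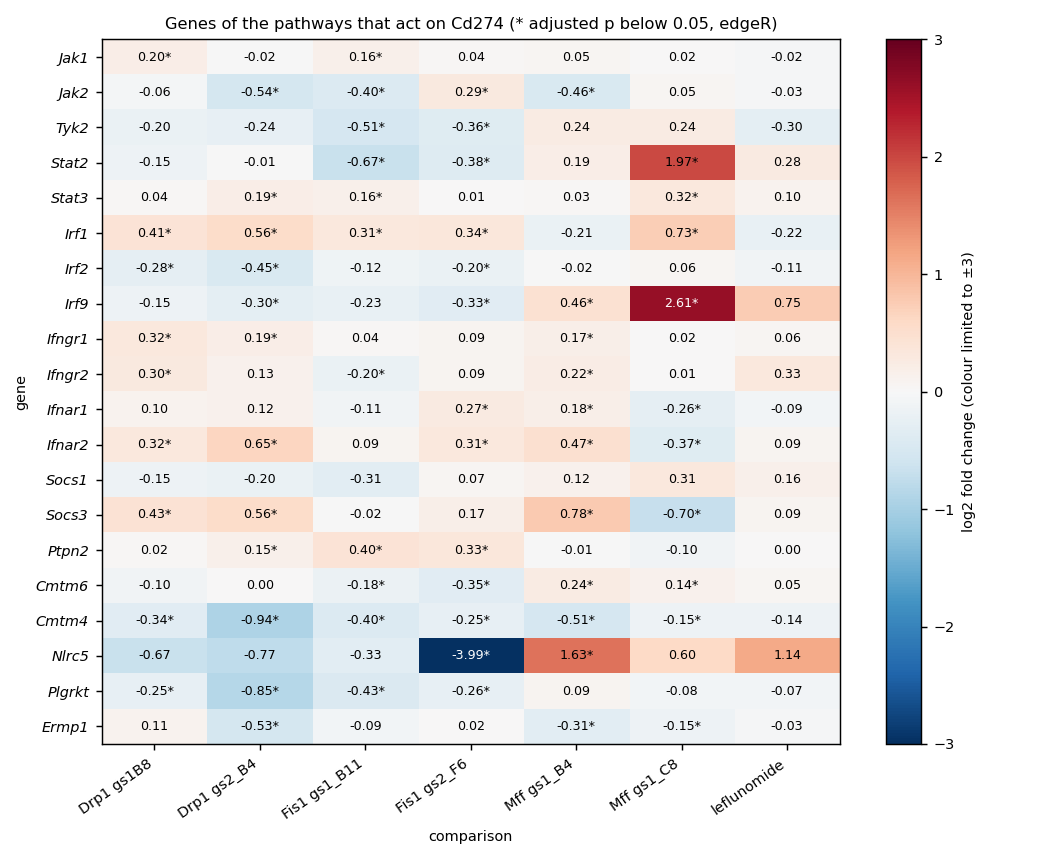
Log2 fold change of 20 genes listed as PD-L1 regulators (rows), in each clone against parental cells and in leflunomide against DMSO (columns). An asterisk marks an adjusted p below 0.05 in edgeR, and the colour is limited to ±3. Stat2 and Irf9 stand out in gs1_C8, where they are 1.97 and 2.61.

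Lgals9 (ENSMUSG00000001123.15, chr11:78962974-78984946, minus strand) encodes galectin-9, a tandem-repeat lectin that binds TIM-3. The parental libraries held 9.94, 7.22 and 7.20 CPM, gs1_B4 38.0, 32.2 and 27.5 CPM, and gs1_C8 186.1, 116.5 and 112.5 CPM. Both Mff clones lay above every library of the other 7 groups, and replicate 1 was the highest of the 3 gs1_C8 libraries. In edgeR the rise was 3.94-fold in gs1_B4 (log2 fold change 1.98, SE 0.187, adjusted p = 4.1e-08) and 16.98-fold in gs1_C8 (4.09, SE 0.183, adjusted p = 7.2e-13).

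The Drp1 and Fis1 clones did not share this rise. Lgals9 was at 5.78, 5.79 and 5.09 CPM in gs1B8, below all 3 parental libraries, at a log2 fold change of -0.55 (SE 0.227) that did not pass the test (edgeR adjusted p = 0.074). The gs1_B11 libraries were at 6.62, 6.45 and 5.21 CPM and those of gs2_F6 at 6.75, 5.99 and 4.66 CPM, again below all parental values and not called. The DMSO libraries of the drug arm, also without a knockout, were at 5.36, 5.74 and 6.76 CPM, likewise below all parental values. The arms were not compared by a test. Of 15 alternatives, Lgals9 passed as lower in 4 for gs1B8, 2 for gs1_B11 and 3 for gs2_F6. DESeq2 was among them for gs1B8 and gs2_F6. The gs2_B4 mean of 8.12 CPM equalled the parental mean of 8.12 CPM.

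With leflunomide Lgals9 went from 5.36, 5.74 and 6.76 CPM in DMSO to 8.87, 9.05 and 11.3 CPM, and the groups did not overlap. This was a 1.64-fold rise (log2 fold change 0.72, SE 0.150, edgeR adjusted p = 0.047). The call was lost when any 1 of DMSO replicates 1, 2 or 3 or Leflu replicates 1 or 2 was left out, and with DESeq2 size factors, while the log2 value stayed between 0.59 and 0.82. Leukocyte markers summed to 12.5 to 16.5 CPM with leflunomide and 4.83 to 7.12 CPM in DMSO, mostly from Csf1r and Cd68, and epithelial markers to 1786 to 2028 and 2368 to 2475 CPM. Their part in the Lgals9 difference was not tested. In the Mff clones the leukocyte sums were 8.35 to 10.2 CPM in gs1_B4 and 7.92 to 8.93 CPM in gs1_C8, beside 8.52 to 8.97 CPM in parental cells.

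Over the 9 group means of log2(CPM + 1), Lgals9 and Cd274 varied alike (Pearson r = 0.95, and 0.86 over the 27 libraries). The groups share their parental line and are not independent, so this is a description, and the 2 Mff clones have the highest means of both genes. Among 9742 or 9743 genes with at least 5 CPM, those closest to Lgals9 were Mitd1 (r = 0.982), Ifih1 (0.981) and Oas1g (0.981) over the 9 groups. Closest to Cd274 were Irgm2 (0.976), Usp18 (0.970) and Oas1g (0.968).

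Lgals1 (ENSMUSG00000068220.6, chr15:78926725-78930465, plus strand) encodes galectin-1, a small lectin that is abundant in mesenchymal-like cells and induces death of activated T cells. Its level was 2902, 3080 and 3408 CPM in parental cells, 2270, 1970 and 1672 CPM in gs1_B4, and 2302, 1976 and 2132 CPM in gs1_C8. Both Mff clones lay below every parental library. Lgals1 fell by 0.70 on the log2 scale in gs1_B4 (SE 0.0793, edgeR adjusted p = 4.9e-07) and by 0.56 in gs1_C8 (SE 0.0792, edgeR adjusted p = 7.9e-06). In the Drp1 clone gs2_B4, at 2612, 2581 and 2435 CPM, it fell by 0.31 (SE 0.0790, edgeR adjusted p = 0.0024).

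The highest Lgals1 levels were in the Fis1 clone gs2_F6, at 3713, 3608 and 3360 CPM, which overlapped parental and was not called (log2 fold change 0.17, edgeR adjusted p = 0.10). The values of gs1B8 and gs1_B11, with means of 2960 and 3070 CPM, also overlapped those of parental cells. With leflunomide Lgals1 was at 2481, 2197 and 2394 CPM against 2895, 3454 and 2982 CPM in DMSO. The groups did not overlap, but the difference of -0.40 (SE 0.0947) did not pass the test (edgeR adjusted p = 0.069). It passed in 4 of 14 alternatives, 1 of them without Leflu replicate 3.

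Lgals3 (ENSMUSG00000050335.17, chr14:47367751-47386160, plus strand) encodes galectin-3, the chimera-type galectin, which crosslinks surface glycoproteins. Parental libraries held 318.3, 310.2 and 322.5 CPM, gs1_B4 267.7, 235.8 and 215.2 CPM, and gs1_C8 510.8, 412.4 and 456.8 CPM. The 2 Mff clones thus lay on opposite sides of the parental values with no overlap. Lgals3 fell by 0.43 in gs1_B4 (SE 0.0745, edgeR adjusted p = 7.1e-05) and rose by 0.53 in gs1_C8 (SE 0.0741, edgeR adjusted p = 8.0e-06). The Drp1 clones and gs1_B11 had Lgals3 means of 282.8 to 311.8 CPM and were not called. The gs2_F6 libraries, at 373.9, 365.6 and 353.3 CPM, were above all parental libraries without passing the test (log2 fold change 0.19, edgeR adjusted p = 0.059). In DMSO the mean was 266.8 ± 23.9 CPM and with leflunomide 292.2 ± 23.9 CPM (SD, n = 3 each), with overlap. Every DMSO library lay below every parental one, and the arms were not compared by a test.

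Other genes of the family were also read in each clone. Of 8 further galectin genes and ligands, 3 were tested: Lgals8, Lgalsl and the galectin-3 binding glycoprotein Lgals3bp. All 3 were higher in gs1_C8, by 0.87, 0.26 and 2.61 on the log2 scale, where 21.5% of all genes were called higher. In gs1_B4, Lgals8 and Lgalsl were lower (-0.39 and -0.37) and Lgals3bp was not called (-0.52). Lgals3bp was lower in gs1B8, gs1_B11 and gs2_F6 (-1.56, -1.71 and -2.28) and higher in gs2_B4 (0.76). None of the 3 was called with leflunomide by edgeR, and 1 had an unadjusted p below 0.05, beside 2.79% and 20.9% of all genes.

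Cd47 (ENSMUSG00000055447.19, chr16:49800533-49915010, plus strand) encodes the ligand of SIRPα and varied least of the 8 genes: the highest group mean was 1.31 times the lowest. It was at 94.3, 90.2 and 83.7 CPM in parental cells, 110.7, 107.8 and 124.2 CPM in gs1_B4, 104.9, 103.8 and 107.1 CPM in gs1_C8 and 107.5, 101.4 and 110.3 CPM in gs2_F6. These 3 clones lay above every parental library, and replicate 3 of gs1_B4 was the highest library of the series. The rises were 1.25-fold in gs1_B4 (SE of log2 0.0538, edgeR adjusted p = 4.7e-05), 1.18-fold in gs2_F6 (SE 0.0540, edgeR adjusted p = 0.0018) and 1.17-fold in gs1_C8 (SE 0.0540, edgeR adjusted p = 0.0019). All 3 are small changes: none passed a test against a minimum fold of 1.5.

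The Drp1 clones and gs1_B11 had Cd47 means of 87.4 to 95.3 CPM, which overlapped parental cells. Leflunomide libraries held 79.4, 84.0 and 97.6 CPM and DMSO libraries 98.7, 94.4 and 98.0 CPM, which overlapped and were not called (edgeR adjusted p = 0.34). Every DMSO library lay above every parental one, and the arms were not compared by a test. Of 8 further genes of the CD47 axis 7 were tested. Lrp1, the receptor for calreticulin on engulfing cells, was higher in gs1B8 and gs2_B4 (1.95 and 3.09 on the log2 scale) and in gs1_B11 (0.35), and lower in gs2_F6, gs1_B4 and gs1_C8 (-0.83, -0.64 and -2.77). Calr, calreticulin itself, was lower in gs2_B4, gs1_B11, gs2_F6 and gs1_C8 (-0.44, -0.18, -0.32 and -0.40).

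Pvr (ENSMUSG00000040511.14, chr7:19903578-19921160, minus strand) encodes CD155, the high-affinity ligand of TIGIT. Its parental libraries were at 56.3, 62.2 and 79.3 CPM. In gs2_B4 it was at 97.4, 107.7 and 130.9 CPM and in gs1_B4 at 103.8, 99.9 and 121.4 CPM. Both clones lay above every parental library. Pvr rose 1.68-fold in gs2_B4 (log2 fold change 0.75, SE 0.131, edgeR adjusted p = 7.7e-05) and 1.61-fold in gs1_B4 (0.69, SE 0.131, edgeR adjusted p = 0.00021).

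Smaller Pvr changes were found in gs1_C8, at 88.4, 85.9 and 103.7 CPM, and in gs1B8, at 77.6, 81.6 and 96.0 CPM. They were 1.39-fold in gs1_C8 (SE of log2 0.132, edgeR adjusted p = 0.0053) and 1.28-fold in gs1B8 (SE 0.132, edgeR adjusted p = 0.048). The gs1B8 libraries overlapped the parental ones, and that call was lost without parental replicate 1 or 2 or gs1B8 replicate 2 or 3. Neither Fis1 clone was called for Pvr, at means of 77.1 and 72.6 CPM. Of 15 alternatives, Pvr passed in 4 for gs1_B11, 1 of them without parental replicate 3, and in 1 for gs2_F6. In all 7 groups of the knockout arm the highest Pvr value was in replicate 3, the library of the last of the 3 serial runs of columns in the table. Nectin2 was highest in replicate 1 in all 7 groups.

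With leflunomide Pvr was at 74.9, 81.3 and 77.7 CPM, above the DMSO values of 49.8, 48.2 and 65.1 CPM. The groups did not overlap, but the 1.44-fold difference (log2 fold change 0.52, SE 0.113) just missed the threshold (edgeR adjusted p = 0.052). The highest DMSO value is replicate 3, the library with the large ribosomal RNA share. Without it the call was made, as it was without Leflu replicate 3. In all, Pvr passed in 7 of 14 alternatives.

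Nectin2 (ENSMUSG00000062300.14, chr7:19716644-19750483, minus strand) encodes CD112, the second ligand that DNAM-1 and TIGIT share, and was the 1 gene of the 8 called in all 6 clones. Its parental libraries were at 19.1, 18.5 and 17.9 CPM, and the lowest library of any clone was at 22.2 CPM, so no clone overlapped parental cells. Means were 22.6 ± 0.393 and 24.1 ± 1.24 CPM in the Drp1 clones gs1B8 and gs2_B4, 23.9 ± 1.10 and 31.3 ± 1.89 CPM in the Fis1 clones gs1_B11 and gs2_F6, and 31.02 ± 2.74 and 35.2 ± 4.34 CPM in the Mff clones gs1_B4 and gs1_C8 (SD, n = 3 each). Of all tested genes 0.538% were called higher and 2.1% lower in all 6 clones.

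The size of the Nectin2 rise ran from 1.21-fold in gs1B8 (log2 fold change 0.28, SE 0.0801, edgeR adjusted p = 0.012) to 1.89-fold in gs1_C8 (0.92, SE 0.0779, edgeR adjusted p = 9.2e-09). It was 1.29-fold in gs2_B4, 1.30-fold in gs1_B11, 1.68-fold in gs2_F6 and 1.64-fold in gs1_B4. Against a minimum fold of 1.5, gs1_C8 was the 1 clone that passed. Leflunomide libraries held 21.04, 20.03 and 23.5 CPM, above the DMSO libraries at 17.03, 18.8 and 17.1 CPM without overlap, at a log2 fold change of 0.29 (SE 0.103) that did not pass (edgeR adjusted p = 0.17). An opposite-strand gene, Gm20512, overlaps Nectin2 exons but averaged 1.3 counts per library.

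Of 12 related nectin, nectin-like and receptor genes, 6 were tested in the knockout arm. Nectin3, an adhesion partner of both Nectin2 and Pvr proteins, was higher in gs1B8, gs2_B4, gs1_B11 and gs1_B4 (0.54, 0.44, 1.01 and 1.10 on the log2 scale) and lower in gs2_F6 and gs1_C8 (-0.17 and -2.26). Tigit RNA itself was detected in these tumour cells, at a mean of 40.0 CPM over the knockout arm, and was lower in gs1_C8 (-0.64) and gs1_B11 (-0.16) and higher in gs1B8, gs2_B4 and gs2_F6 (0.26, 0.23 and 0.25). With leflunomide 1 of 6 was called, Crtam, at a mean of 0.693 CPM (log2 fold change 2.70, SE 0.426, edgeR adjusted p = 0.023). Crtam is outside the rule for named genes and is given since no other gene of this list was called there. By edgeR 3 of the 6 had an unadjusted p below 0.05. Of all genes, 2.79% were called and 20.9% had an unadjusted p below 0.05.

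Nt5e (ENSMUSG00000032420.8, chr9:88327197-88372092, plus strand) encodes CD73, the ectoenzyme that converts AMP to adenosine, and had the second-widest range of the 8 genes, after Lgals9: its highest group mean was 12.5 times its lowest. Parental libraries were at 64.1, 74.5 and 70.1 CPM. In gs2_B4 Nt5e was at 144.8, 165.2 and 153.8 CPM and in gs1_B11 at 129.4, 140.2 and 152.6 CPM, while gs2_F6 was at 22.1, 23.9 and 30.8 CPM and gs1_C8 at 11.8, 11.5 and 13.8 CPM. All of these clones were clear of the parental range, with one Fis1 clone above it and the other below.

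Nt5e rose 2.20-fold in gs2_B4 (log2 fold change 1.14, SE 0.0896, edgeR adjusted p = 2.3e-09) and 2.02-fold in gs1_B11 (1.02, SE 0.0897, edgeR adjusted p = 1.8e-08). It was 2.74-fold lower in gs2_F6 (-1.46, SE 0.0970, edgeR adjusted p = 5.6e-10) and 5.70-fold lower in gs1_C8 (-2.51, SE 0.105, edgeR adjusted p = 2.5e-13). The other Drp1 clone, gs1B8, at 91.9, 92.7 and 98.2 CPM, rose 1.34-fold (edgeR adjusted p = 0.0012). The Mff clone gs1_B4, at 75.4, 77.7 and 79.8 CPM, also lay above all parental libraries but was not called (log2 fold change 0.13, edgeR adjusted p = 0.26). Leflunomide and DMSO overlapped, at means of 65.1 ± 4.84 and 60.9 ± 4.42 CPM (SD, n = 3 each).

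In the order of group means, 5 of 8 neighbouring pairs of groups did not overlap for Nt5e, more than for any of the other 7 genes. The same count was not made over all genes, so it does not say how unusual Nt5e is among them. The genes whose levels followed Nt5e most closely over the 9 group means were Twist1 (r = 0.969), Hif1a (0.958) and Zfp827 (0.956). Of 12 further genes of the adenosine axis 8 were tested in the knockout arm. Slc29a2, an equilibrative nucleoside transporter, was lower in gs1B8, gs2_B4, gs1_B11, gs1_B4 and gs1_C8 (-0.31, -0.92, -0.69, -0.91 and -0.78 on the log2 scale). Ada, the adenosine deaminase, was lower in the same 5 clones (-0.28, -0.87, -0.95, -0.42 and -0.44). Both were near the parental level in gs2_F6 (-0.03 and 0.04, not called). Of all tested genes, 16.1% were called, with either sign, in at least 5 of 6 clones, and all clones were set against the same parental libraries. Entpd3, which makes AMP from ATP, was higher in gs1B8, gs2_B4, gs1_B11 and gs1_B4 (0.34, 0.89, 0.36 and 0.87). With leflunomide 0 of 6 tested genes were called by edgeR, and 1 had an unadjusted p below 0.05, beside 2.79% and 20.9% of all genes.

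**Figure D4:**
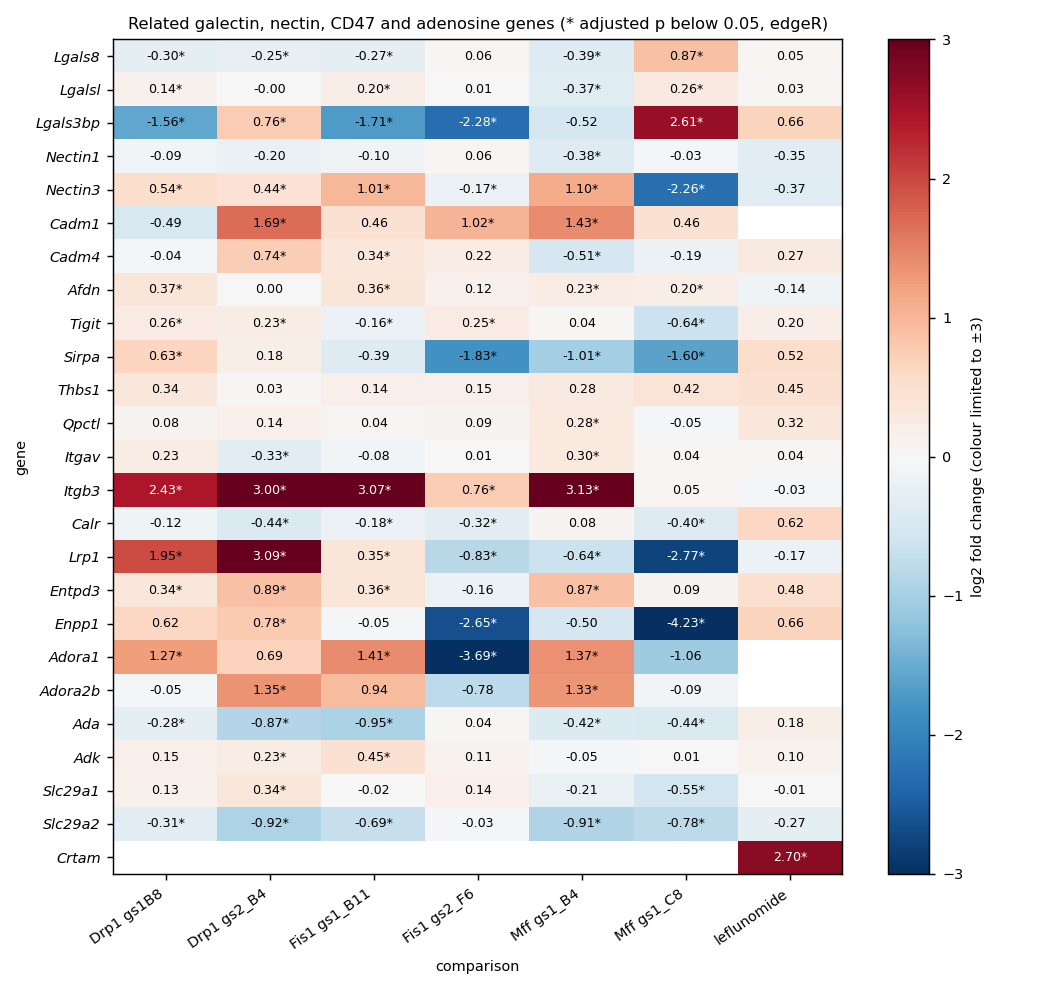
Log2 fold change of tested genes related to the galectins, nectins, CD47 and CD73 (rows) in each clone against parental cells and in leflunomide against DMSO (columns), with an asterisk for an adjusted p below 0.05 in edgeR, the colour limited to ±3 and blank cells where a gene was not tested. Lgals3bp, Nectin3 and Lrp1 change sign between clones, and Crtam (2.70) is the 1 gene called with leflunomide.

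Clones of 1 genotype were then compared with each other. In gs2_B4 against gs1B8, the Drp1 pair, 2 of 8 were higher and 1 lower, where 41% of all genes were called, 20.1% higher and 20.9% lower. In gs2_F6 against gs1_B11, the Fis1 pair, 4 were higher and 1 lower, against 47.6%, 22.9% and 24.7%. In gs1_C8 against gs1_B4, the Mff pair, 4 were higher and 1 lower, against 54.7%, 28.3% and 26.4%. These shares are near those of all genes. Nt5e differed in all 3 pairs: it was 1.64-fold higher in gs2_B4 than in gs1B8, 5.56-fold lower in gs2_F6 than in gs1_B11 and 6.23-fold lower in gs1_C8 than in gs1_B4. The Mff pair also differed in Lgals9, which was 4.31-fold higher in gs1_C8 (edgeR adjusted p = 6.0e-10), Cd274, 2.30-fold higher (edgeR adjusted p = 0.00056), and Lgals3, 1.94-fold higher (edgeR adjusted p = 1.2e-09). Between the Fis1 clones, Lgals3, Cd47 and Nectin2 were 1.24-fold, 1.21-fold and 1.30-fold higher in gs2_F6.

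Some of the smaller clone differences lost their call when 1 library was left out, which leaves 2 in its group. Lgals1 between the Drp1 clones (-0.22 on the log2 scale) was no longer called without gs1B8 replicate 2 or 3 or gs2_B4 replicate 3, and Pvr (0.39) without gs1B8 replicate 1 or 2 or gs2_B4 replicate 3. Over all alternatives these values stayed between -0.25 and -0.19 for Lgals1 and between 0.27 and 0.49 for Pvr. Between the Fis1 clones the call of Lgals1 (0.20) was lost without gs1_B11 replicate 1, 2 or 3 or gs2_F6 replicate 1 or 2, at values between 0.17 and 0.23. Nectin2 between the Mff clones (0.20) lost its call without gs1_C8 replicate 1 or gs1_B4 replicate 2 or 3, at values between 0.09 and 0.27.

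**Figure D5:**
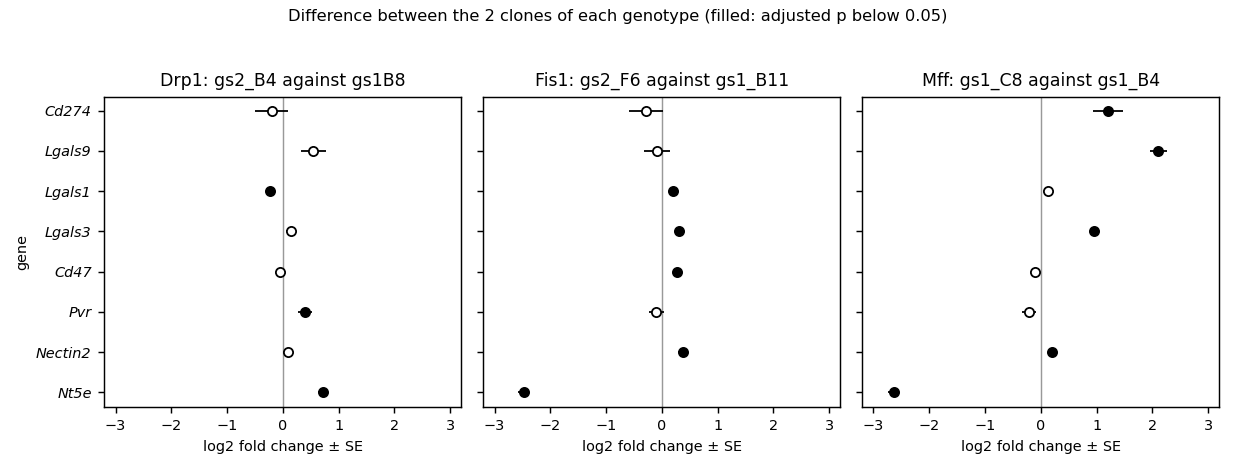
Log2 fold change ± SE of each of the 8 genes (rows) between the 2 clones of Drp1, Fis1 and Mff (panels), with filled points for an adjusted p below 0.05 in edgeR. Nt5e lies at 0.71, -2.47 and -2.64, and Lgals9 at 2.11 in the Mff pair.

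Genotypes were compared with the clone as the replicate, on sums of counts per clone, 2 sums per genotype. None of the 8 genes was called by edgeR in Fis1_KO against Drp1_KO (0% of 15513 genes called), in Mff_KO against Drp1_KO (0.00645%) or in Mff_KO against Fis1_KO (0.00645%). At an unadjusted p below 0.05 there were 0, 4 and 3 of the 8, beside 2.05%, 6.14% and 8.33% of all genes. Lgals9 was higher in Mff than in Drp1 clones by 3.66 (SE 0.713, edgeR adjusted p = 0.56) and than in Fis1 clones by 3.85 (SE 0.720, edgeR adjusted p = 0.44) on the log2 scale. Cd274 was at 1.28 (SE 0.451) and 1.45 (SE 0.453) and Lgals1 at -0.42 (SE 0.139) and -0.69 (SE 0.139) in these 2 contrasts. A further fit kept each clone as its own group and contrasted the averages of the clones of each genotype. Its spread came only from libraries within a clone, taken as independent, so differences between clones of a genotype did not enter it. It gave 5, 7 and 7 calls, where 36.8%, 54.2% and 57% of all 13940 genes were called.

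Both clones of a genotype were called with the same sign for Nectin2 in every genotype, for Pvr and Nt5e in Drp1, and for Lgals9, Lgals1, Cd47 and Pvr in Mff. In the Fis1 clones Nectin2 was the 1 gene so called. Of all tested genes, both clones were called with the same sign for 20% in Drp1 (7.94% higher, 12.1% lower), 15% in Fis1 (5.94% higher, 9.02% lower) and 18.6% in Mff (7.37% higher, 11.3% lower).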

How the data were processed

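PolyA RNA from 27 libraries of 4T1 cells was sequenced with a KAPA RNA HyperPrep kit, per the labels' protocols. Reads were trimmed with Trimmomatic 0.35 and genes quantified with RSEM on GRCm38 (mm10), per the submitters' processing notes, which as used here name no aligner and no RSEM version. The deposited values are RSEM expected counts per gene, not normalized between libraries: 91.5% were whole numbers within 1e-09, zeros included, as were 74.9% of those above 0, and all were rounded before fitting. RSEM divides reads that fit several genes, so counts of close paralogs carry extra uncertainty.

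Libraries were grouped by column names, which carry a serial number and a clone code. Replicates are numbered by column order within a group. Every pair of replicates differed beyond counting noise (chi-square over its degrees of freedom at least 3.92). Of the gene IDs, 98.1% matched GENCODE vM21 with identical coordinates, which gave exon lengths.

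The 21 knockout-arm libraries were fitted together and the 6 drug-arm libraries alone in edgeR 4.0.16 (R 4.3.3): filterByExpr, TMM, two-sided quasi-likelihood F test, Benjamini-Hochberg over 13940, 12603 or, for clone sums, 15513 genes, threshold 0.05. The scripts were tested on simulated data. Levels are CPM on TMM-scaled totals over all 27 libraries. Fits with DESeq2 1.42.0, limma 3.58.1 (voom) and other settings were alternatives. By rule, pathway genes to be named were up to 3 called per list and contrast, with the largest change and at least 5 CPM. The 3 genes most like each of the 8 were also to be named. Not all genes that met the rule are named in the text. Others were named after their values were seen, mostly to fill in a gene's other clones or a list's few tested genes. Nlrc5 and Ifnar1 met the rule in no clone and were also named after their values were seen. The 8 genes and the lists were chosen with earlier results of these data known. One pathway gene and one marker are not reported here by name.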

Additional observations from a re-analysis of the deposited data

Results flagged for a closer look

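One library stood far from the other 5 of its genotype: Cd47 in Mff_KO, gs1_B4 replicate 3, at 124.2 CPM. Its gap to the nearest library, as a share of the range of the 6, was above the critical value of Dixon's test. That value marks about 1 in 20 sets by chance where all 6 libraries come from the same population. Each set here pooled libraries of different clones, which often differed from each other, so the rate of chance marks is not known. Cd47 in Mff_KO was the 1 of 24 sets (8 genes in 3 genotypes) so marked. This count cannot be read against 1 in 20.

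The 2 clones of a genotype differed in edgeR in 13 of 24 tests. Of all genes, 41% were called in the Drp1 pair, 47.6% in the Fis1 pair and 54.7% in the Mff pair, which is near that share. On the log2 scale, the Drp1 clone gs2_B4 differed from gs1B8 by -0.22 in Lgals1, 0.39 in Pvr and 0.71 in Nt5e. The Fis1 clone gs2_F6 differed from gs1_B11 by 0.20 in Lgals1, 0.31 in Lgals3, 0.27 in Cd47, 0.37 in Nectin2 and -2.47 in Nt5e. The Mff clone gs1_C8 differed from gs1_B4 by 1.20 in Cd274, 2.11 in Lgals9, 0.96 in Lgals3, 0.20 in Nectin2 and -2.64 in Nt5e.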

How the results depend on the processing

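No called log2 fold change of the 8 members changed sign under any alternative run. Of these values, 1047 kept their side of the threshold, 75 passed it anew, 45 lost it, and 25 uncalled ones changed sign. The number of members called moved as follows. Without a filter on low counts it was 5 in gs1B8, 4 in gs1_B11, 6 in gs2_F6, 5 in gs2_B4 against gs1B8 and 2 with leflunomide. Over all genes, many more of them tested, 14.1%, 22.7%, 15.4%, 19.2% and 3.99% were called in these. With only the 2 groups compared it was 5 in gs1B8 and 5 in gs2_F6, where 31.9% and 29.6% of all genes were called. Against a minimum fold of 1.5 it was 0 in gs1B8, 1 each in gs2_B4, gs1_B11, gs2_F6 and gs1_B4, 4 in gs1_C8 and 0 with leflunomide. There the share of all genes called ran from 0.0952% with leflunomide to 9.02% in gs2_B4, and was 7.31% in gs1_C8. DESeq2 gave 5 in gs2_F6 and 3 with leflunomide, voom 5 and 4, and DESeq2 size factors in edgeR 0 with leflunomide. Of all genes, DESeq2 called 27.2% in gs2_F6 and 5.82% with leflunomide, voom 41% and 22.3%, and DESeq2 size factors 2.74% with leflunomide. All 27 libraries in 1 fit gave 4 with leflunomide, where 17.9% of all genes were called. Leaving out 1 library gave 1 to 4 for gs2_B4 against gs1B8, the lowest without gs1B8 replicate 2 or gs2_B4 replicate 3. The share of all genes called there stayed between 34.3% and 35.8%. With leflunomide it gave 0 to 4, with 0 without DMSO replicate 1 or 2 or Leflu replicate 1 or 2 and 4 without Leflu replicate 3. With leflunomide the share of all genes called moved too, from 0.0778% without Leflu replicate 2 to 12.4% without Leflu replicate 3. Averages of the clones of a genotype, with only the spread within clones, gave 5 for Fis1_KO against Drp1_KO. They gave 7 for Mff_KO against Drp1_KO and 7 for Mff_KO against Fis1_KO. In these, 36.8%, 54.2% and 57% of all genes were called.

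A replicate block by serial run of columns gave 4 in gs1_B11, 5 in gs2_F6 and 2 with leflunomide. Of all genes, 50.6%, 35.1% and 2.79% were called in these. Pvr then passed in gs1_B11 (0.23), gs2_F6 (0.14), leflunomide (0.53) and gs1_C8 against gs1_B4 (-0.21). Lgals9 then passed as lower in gs1B8 (-0.55), gs1_B11 (-0.40) and gs2_F6 (-0.49) and as higher in gs2_B4 against gs1B8 (0.54). Libraries share only a run number: 31 of 63 same-run pairs in the knockout arm and 2 of 3 in the drug arm had correlated deviations over 0.1, and 20 of 21 and 3 of 6 libraries were closest to their own run. Of 72 group means, 16 moved by over 1 SD without ribosomal RNA genes and 7 with raw totals, and 3 of 8 sets of most similar genes moved over libraries. The low counts of Cd274 limit its precision.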
